A study of Nothobranchius furzeri with 30 samples.

Results

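The period (PER) and cryptochrome (CRY) loci of the African turquoise killifish, *Nothobranchius furzeri*, were followed in the ageing retina. Members were defined by a rule on gene names that uses no measured value: loci of the deposited annotation named PER1 to PER3, CRY1 to CRY5, CRY-DASH or CIART, with copy suffixes allowed and lens crystallins left out. This gave 10 of 24989 loci, namely PER1 (XLOC_008901), PER2 (XLOC_015352), PER2(1OF2) (XLOC_018419), PER3 (XLOC_016747), CRY1 (XLOC_005660), CRY1(2OF2) (XLOC_019840), CRY2A (XLOC_020821), CRY3 (XLOC_019400), CRY5 (XLOC_013065) and CRY-DASH (XLOC_014201). All 10 passed the filter on low counts, which kept 13975 loci. A locus that carries ciart as its second name is listed as C1ORF51(1OF2) (XLOC_001862), so the name rule left it out and it is given separately. PER2 and PER2(1OF2), and likewise CRY1 and CRY1(2OF2), carry the same base name, and how reads were split within each pair is uncertain.

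The circadian clock is a loop of transcription and translation. In animals, CLOCK or NPAS2 pairs with ARNTL (also called BMAL1) and drives genes with E-box elements, among them the PER genes and several CRY genes. PER and CRY proteins accumulate, enter the nucleus and hold that same activator pair back, which closes the loop over a day. The vertebrate retina keeps its own clock, and in fish light acts on it directly, with PER2 and CRY1A known in zebrafish as light-induced genes. CRY5 and CRY-DASH belong to the same protein family but are known from zebrafish as light-driven DNA repair enzymes (photolyases) and not as core clock repressors.

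RNA came from the neural retina of 30 untreated wildtype female fish of the inbred GRZ-AD strain, 10 at each of 6 weeks (young adult), 12 weeks (middle-aged) and 18 weeks (old). Both retinas of a fish formed a sample, and the retinal pigment epithelium (RPE) had been rinsed off beforehand. Only females of a single inbred strain were examined. PER, CRY and other clock transcripts cycle over the day, and the time of day at collection is not given in the sources used here. Differences between ages in the clock genes below, PER, CRY, activators and outputs alike, therefore cannot be told apart from differences in clock time at collection. Reads from transcript 3′ ends were counted per locus, 3552371 to 5840792 per fish. Levels are given as CPM (counts scaled to a common total per fish) after TMM scaling, which sets the bulk of loci to be equal between fish. They are not scaled to length, and they are read between ages and not between loci. Means are followed by the SD over the 10 fish of that age.

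A few features of the samples touch the results below. One 18-week fish (fish 1) stood apart, at 101 on the first principal component where the other 9 fish of its age lay between 8.32 and 27.7. Results of the members that rest on it are given with and without it. Changes of other genes are given with all fish only. TMM factors averaged 0.908, 0.99 and 1.12 at 6, 12 and 18 weeks, and with library size alone the median of all loci moved by 0.32 (log2) between 18 and 6 weeks against 0.02 with TMM. The 2 most abundant loci took a mean of 43%, 38.5% and 30.8% of counts at 6, 12 and 18 weeks. With loci above 1% of counts left out of TMM scaling, that median moved by 0.03. Among 308, 4076 and 1695 loci called between 12 and 6, 18 and 6, and 18 and 12 weeks, 58.8%, 47.9% and 42.8% were higher at the older age with TMM, against 90.4%, 91% and 88% of those called with library size alone. Markers of neural retina were abundant, with the summed level of 8 rod markers between 13600 and 22400 CPM over all fish. RPE markers were still present, with 12 tested loci summing to 897 to 1750 CPM at 6 weeks, 354 to 1940 CPM at 12 weeks and 414 to 1000 CPM at 18 weeks.

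Between 6 and 18 weeks, PER1, PER2, PER3 and CRY1(2OF2) fell and CRY2A rose. PER1 dropped to 58.3% of its 6-week level and PER3 to 69.3%, while CRY2A reached 152%. The 5 called members (FDR under 0.05, edgeR) compare with 29.2% of all tested loci called in either direction, 15.2% lower and 14% higher. The changes were modest in size: no member reached an absolute log2 fold change (log2FC) of 1 together with the FDR threshold, as 3.34% of tested loci did (0.501% between 12 and 6 weeks and 1.02% between 18 and 12 weeks, again with 0 members). PER1 and PER3 were below every 6-week fish in 10 of 10 old fish, a complete separation seen downward in 1.33% of tested loci.

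**Figure D1:**
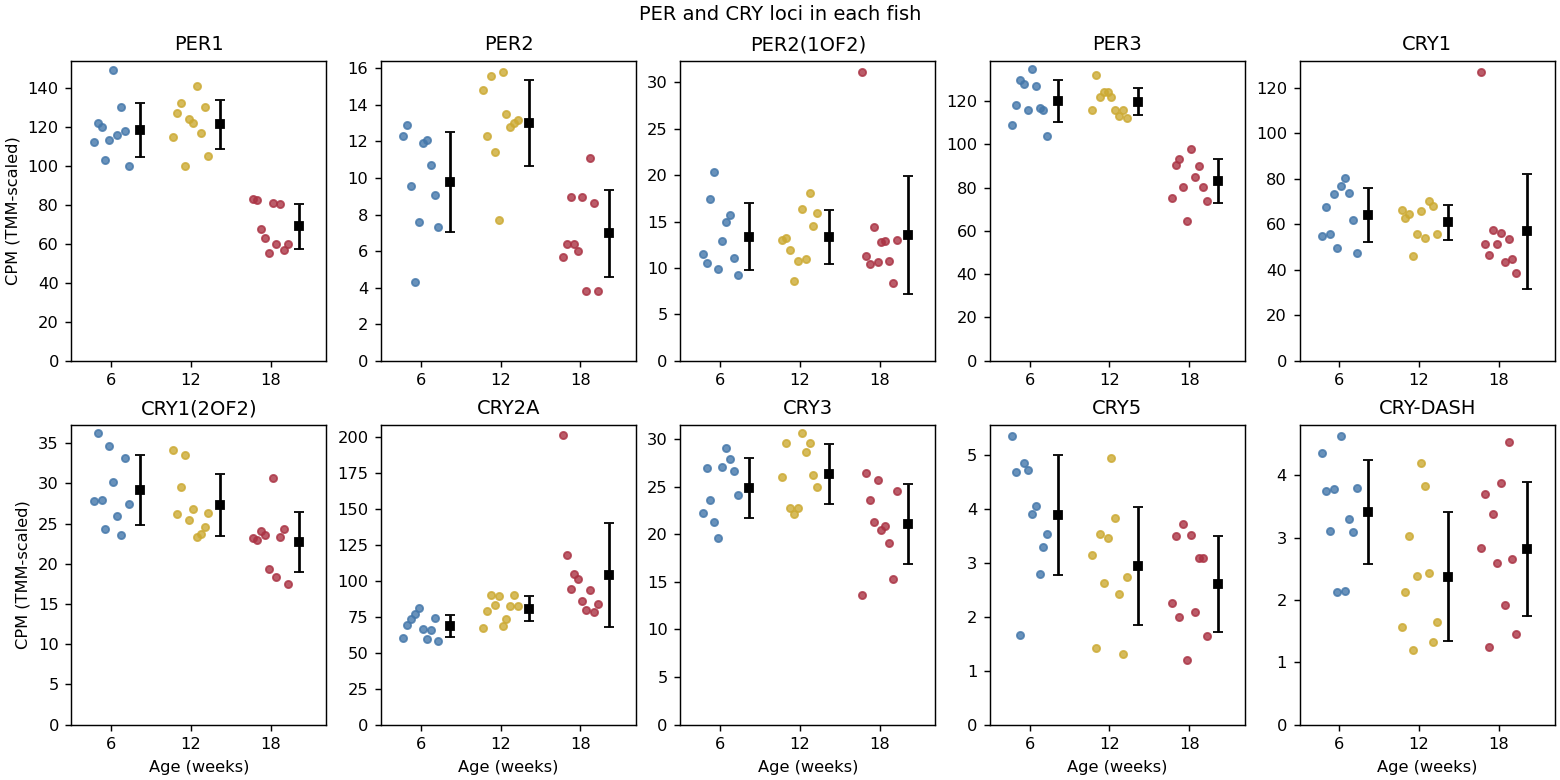
Level of each PER and CRY locus (CPM after TMM scaling, vertical axis from 0, scale differs between panels) in each of 10 fish per age; circles are fish (6 weeks blue, 12 weeks yellow, 18 weeks red), and the black square with bar is the mean ± SD. PER1 at 18 weeks (55.5 to 83.2 CPM) lies below both younger ages, CRY2A at 18 weeks (78.1 to 201 CPM) lies mostly above 6 weeks, and fish 1 is the single high 18-week point of CRY1 (127 CPM) and of PER2(1OF2) (31.1 CPM).

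PER1, a period gene of the E-box-driven negative limb, was measured at 99.8, 117 and 149 CPM (lowest, median and highest fish) at 6 weeks. At 12 weeks it stood at 100, 123 and 141 CPM, and at 18 weeks at 55.5, 65.2 and 83.2 CPM. The 6- and 12-week fish overlapped throughout, and every 18-week fish lay below all of them. Mean levels were 118 ± 13.9, 121 ± 12.5 and 69 ± 11.5 CPM from the youngest to the oldest group. The log2FC of PER1 at 18 against 6 weeks was -0.78 (SE 0.0877, FDR 1.8e-08, edgeR), and at 18 against 12 weeks it was -0.82 (SE 0.0877, FDR 8.05e-08). PER1 passed in each of the 20 fits that left out a fish of the compared ages, with log2FC between -0.81 and -0.74 at 18 against 6 weeks. Scaled by library size alone it was still lower, at -0.48 (FDR 0.000108).

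PER3, a paralogue of PER1, ranged over 104, 117 and 135 CPM at 6 weeks, 112, 119 and 132 CPM at 12 weeks, and 64.7, 82.7 and 98.1 CPM at 18 weeks. As for PER1, no 18-week fish reached the lowest fish of either younger age. Its means were 120 ± 9.77 CPM in young, 120 ± 6.16 CPM in middle-aged and 83.2 ± 10.2 CPM in old fish. The log2FC of PER3 was -0.53 (SE 0.0713, FDR 5.87e-07, edgeR) at 18 against 6 weeks and -0.52 (SE 0.0712, FDR 3.61e-06) at 18 against 12 weeks. By library size alone the first of these shrank to -0.23 (FDR 0.0207). All 20 fits that left out a fish of the compared ages called it.

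PER2, the light-induced period gene of zebrafish, was a low-count locus with 16 to 83 counts per fish. It was found at 4.32, 10.1 and 12.9 CPM at 6 weeks, 7.68, 13.1 and 15.8 CPM at 12 weeks, and 3.83, 6.4 and 11.1 CPM at 18 weeks. The ages overlapped, with 6 of 10 fish at 12 weeks above all 6-week fish and 6 of 10 at 18 weeks below all 12-week fish. PER2 was thus highest at 12 weeks, with a mean of 13 ± 2.35 CPM, next to 9.78 ± 2.75 CPM in young and 6.98 ± 2.38 CPM in old fish. The fall from 12 weeks was called (log2FC -0.90, SE 0.177, FDR 0.000619, edgeR) in each of 20 fits without a fish, whereas the difference between 12 and 6 weeks was not (log2FC 0.40, SE 0.174, FDR 0.249). With cone markers as a covariate the fall from 12 weeks was not called (-0.54, FDR 0.205).

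The call of PER2 between 18 and 6 weeks (log2FC -0.50, SE 0.181, FDR 0.033, edgeR) was marginal. It held in 13 of 20 fits without a fish, and was lost without 6-week fish 1, 2, 6 or 7 (FDR 0.065, 0.0679, 0.0564 and 0.0607) or 18-week fish 5, 7 or 10 (FDR 0.0532, 0.0666 and 0.0662). Library size alone gave -0.20 (FDR 0.371). The second locus of that name, PER2(1OF2), had means of 13.4 ± 3.62, 13.3 ± 2.93 and 13.6 ± 6.4 CPM in young, middle-aged and old fish, with single fish between 8.41 and 31.1 CPM. Its ages overlapped almost entirely, and the difference of 0.03 between 18 and 6 weeks had a 95% interval of -0.33 to 0.39. Without 18-week fish 1 the value was -0.19 (FDR 0.315).

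CRY2A was the single member called higher. It was at 58.1, 67.9 and 81.2 CPM at 6 weeks, 67.5, 82.5 and 90.2 CPM at 12 weeks, and 78.1, 93.9 and 201 CPM at 18 weeks. Levels at 18 weeks lay above every 6-week fish in 8 of 10 fish, and the 12-week fish sat in between, with 6 of 10 above every 6-week fish. Means in young, middle-aged and old fish were 68.5 ± 7.83, 80.7 ± 8.43 and 104 ± 36.3 CPM. The log2FC of CRY2A was 0.60 (SE 0.118, FDR 0.000181, edgeR) at 18 against 6 weeks, 0.37 (SE 0.117, FDR 0.0329) at 18 against 12 weeks and 0.24 (SE 0.119, FDR 0.348) at 12 against 6 weeks. The large SD at 18 weeks came with fish 1, at 201 CPM where the next fish was at 118 CPM.

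Without 18-week fish 1, CRY2A remained higher at 18 than at 6 weeks (log2FC 0.44, SE 0.0809, FDR 5.13e-05, edgeR) but was no longer called against 12 weeks (log2FC 0.22, SE 0.0804, FDR 0.072). That second call was also lost without 18-week fish 2 (FDR 0.0531) or 12-week fish 1, 6 or 7 (FDR 0.0641, 0.0574 and 0.0555), so it held in 15 of 20 fits. The first was called in each of 20. The name CRY2A is that of the deposited annotation. The locus has no symbol in RefSeq, where it is listed as LOC107390554, and which mammalian CRY gene it matches was not examined.

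Neither CRY1 locus was called higher. CRY1 (cry1a in RefSeq), the light-induced cryptochrome of zebrafish, was at 47.5, 64.7 and 80.5 CPM at 6 weeks, 45.9, 63.6 and 70.3 CPM at 12 weeks, and 38.5, 51.4 and 127 CPM at 18 weeks. Fish 1 alone lay above all younger fish at 18 weeks, with the next old fish at 57.3 CPM, while 4 of 10 old fish lay below all 6-week fish. CRY1 was not called with fish 1 included (log2FC -0.17, SE 0.144, FDR 0.401, edgeR). Without that fish it was lower at 18 weeks, at -0.38 (SE 0.0961, FDR 0.00213) against 6 weeks and -0.30 (SE 0.0962, FDR 0.0324) against 12 weeks. By library size alone and in all fish, the sign of CRY1 turned, to 0.13 (FDR 0.465).

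CRY1(2OF2) was found at 23.6, 27.8 and 36.3 CPM at 6 weeks, 23.3, 26.3 and 34.1 CPM at 12 weeks, and 17.5, 23.2 and 30.6 CPM at 18 weeks. The ages overlapped, though 7 of 10 old fish were below all 6-week fish. Its log2FC was -0.36 (SE 0.101, FDR 0.00654, edgeR) at 18 against 6 weeks and -0.27 (SE 0.101, FDR 0.0769) at 18 against 12 weeks. The first was called in each of 20 fits without a fish, and the second became a call without 18-week fish 6 (-0.33, FDR 0.0272). The fall depended on scaling, with -0.06 (FDR 0.696) at 18 against 6 weeks by library size alone. With loci above 1% of counts left out of TMM scaling it was -0.35 (FDR 0.0073).

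CRY3 ranged over 19.6, 25.4 and 29 CPM at 6 weeks, 22.1, 26.1 and 30.6 CPM at 12 weeks, and 13.6, 21.1 and 26.4 CPM at 18 weeks, with fish 1 lowest among the old. Of the old fish, 6 of 10 were below all 12-week fish and 3 of 10 below all 6-week fish. CRY3 was called at 18 against 12 weeks (log2FC -0.32, SE 0.106, FDR 0.0406, edgeR) but not at 18 against 6 weeks (-0.24, SE 0.106, FDR 0.0899). The former was held in 8 of 20 fits only, and was also lost with upper-quartile factors (FDR 0.0524), with library size alone (FDR 0.401) and with no filter (FDR 0.0798). Leaving out 12-week fish 1, 2, 6, 7, 8 or 9 gave FDR 0.0548, 0.0722, 0.075, 0.0658, 0.0709 and 0.0538, and leaving out 18-week fish 1, 4, 6, 7, 8 or 9 gave FDR 0.0711, 0.0562, 0.0554, 0.0507, 0.0698 and 0.0786. The latter became a call without 18-week fish 2 (-0.28, FDR 0.0481).

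The photolyase relatives were close to the limit of what this depth can resolve. CRY5 had 5 to 27 counts and CRY-DASH 5 to 22 counts per fish. CRY5 was at 1.67, 3.97 and 5.35 CPM at 6 weeks, 1.32, 2.94 and 4.95 CPM at 12 weeks, and 1.2, 2.68 and 3.73 CPM at 18 weeks. Its log2FC at 18 against 6 weeks was -0.57 (SE 0.233, FDR 0.0624, edgeR), and it became a call without 6-week fish 3 (FDR 0.0305) or 18-week fish 4 or 6 (FDR 0.0456 and 0.0497). CRY-DASH was at 2.13, 3.52 and 4.63 CPM at 6 weeks, 1.19, 2.25 and 4.19 CPM at 12 weeks, and 1.24, 2.74 and 4.53 CPM at 18 weeks. The ages overlapped for both, and the 95% interval of CRY-DASH at 18 against 6 weeks was -0.75 to 0.21.

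**Figure D2:**
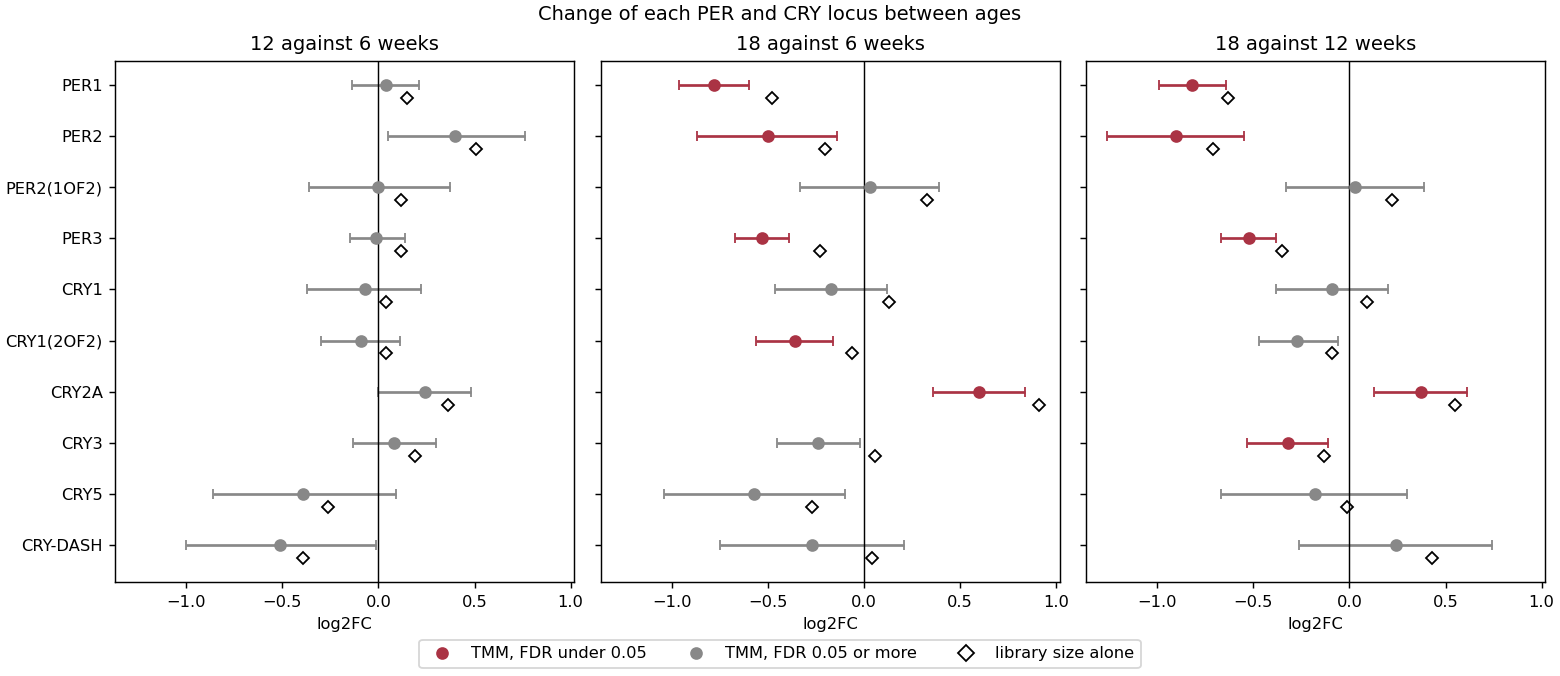
Log2FC (horizontal axis) of each PER and CRY locus in 3 comparisons of ages; circles with bars are the TMM-scaled edgeR estimate and its 95% interval (red, FDR under 0.05; grey, not), and open diamonds are the estimate with library size alone. PER1 and PER3 lie left of 0 with either scaling at 18 weeks and CRY2A right of 0, whereas CRY1 at 18 against 6 weeks is at -0.17 with TMM and 0.13 with library size alone.

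The calls were made at 18 weeks and not at 12 weeks, though whether the steps from 6 to 12 and from 12 to 18 weeks differed in size was not tested. At 12 against 6 weeks 0 members passed FDR 0.05 in edgeR, where 2.2% of all tested loci did, and DESeq2 also called 0. The smallest unadjusted p of members in edgeR were those of PER2 (p = 0.0263, log2FC 0.40), CRY-DASH (p = 0.0469, log2FC -0.51) and CRY2A (p = 0.0546). The share of all tested loci with an unadjusted p this low was not computed, so these values are not read as calls. At 18 against 12 weeks 5 members were called, PER1, PER2, PER3 and CRY3 lower and CRY2A higher, against 6.93% of tested loci lower and 5.19% higher. The test for any difference over the 3 ages called 5 members against 25.7% of tested loci, namely PER1 (FDR 3.91e-09), PER3 (FDR 2.78e-07), CRY2A (FDR 0.000596), PER2 (FDR 0.000757) and CRY1(2OF2) (FDR 0.0171), with CRY3 next at FDR 0.0501 (edgeR). Downward separation of all old fish from all 12-week fish, shown by PER1 and PER3, was found in 0.379% of tested loci.

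Without 18-week fish 1, 6 members were called at 18 against 6 weeks (5 lower) and 4 at 18 against 12 weeks (4 lower), where 30.4% and 12% of tested loci were called. With library size alone 3 members were called at 18 against 6 weeks, PER1 and PER3 lower and CRY2A higher (log2FC 0.91, FDR 6.68e-07). Of all tested loci, 4.56% were called lower and 46.1% higher in that scaling.

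Because scaling moved several values, counts were also divided within each fish, which needs no scaling factor. These ratios were chosen after the levels had been seen and carry no test, and only their course with age is read. CRY2A counts per PER1 count were 0.445, 0.575 and 0.743 (lowest, median and highest fish) at 6 weeks, 0.517, 0.688 and 0.832 at 12 weeks, and 1.06, 1.39 and 2.42 at 18 weeks. Every old fish exceeded every younger one, and without fish 1 the highest old value was 1.82. The same was seen for CRY2A per PER3, which ran over 0.472 to 0.697 in young, 0.566 to 0.78 in middle-aged and 0.876 to 2.67 in old fish (up to 1.56 without fish 1). All PER counts together per all CRY counts lay between 1.25 and 1.49 in young fish, between 1.24 and 1.51 in middle-aged fish, and between 0.527 and 1 in old fish (from 0.679 without fish 1). CRY2A supplied a median of 34.9% of CRY counts at 6 weeks, 40.8% at 12 weeks and 49.1% at 18 weeks. PER1 and PER3 each already separated old from younger fish, so the separation of the ratios that hold them is not a further result. How often other pairs of loci separate in this way was not computed.

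**Figure D3:**
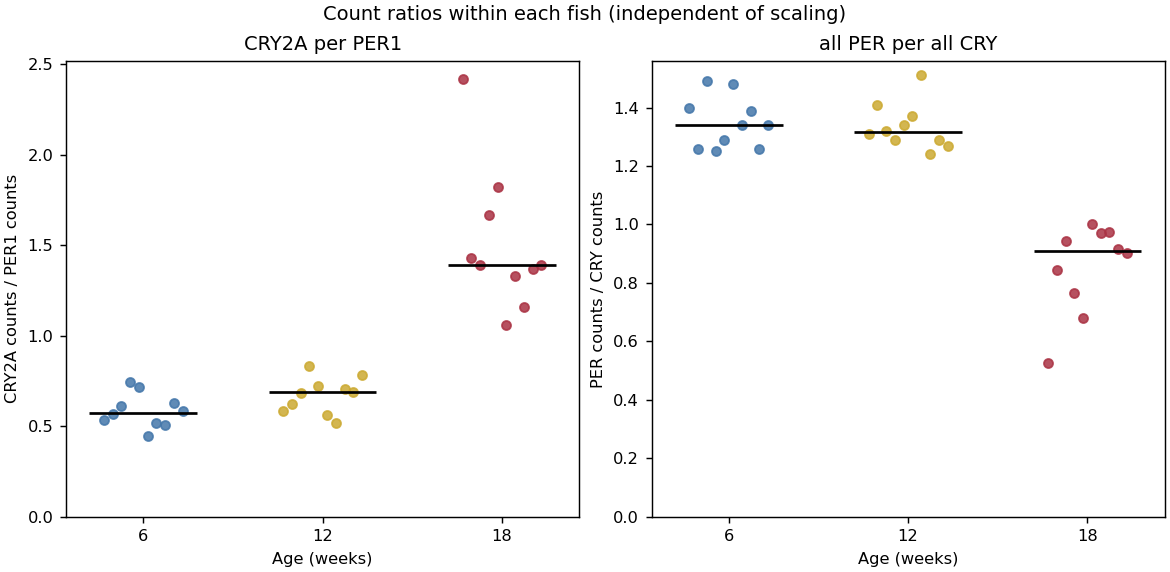
Ratio of raw counts within each fish by age (circles, 10 fish per age; black lines, medians; vertical axes from 0): CRY2A per PER1 on the left and all 4 PER loci per all 6 CRY loci on the right. At 18 weeks the first ratio (1.06 to 2.42) lies above and the second (0.527 to 1) below every younger fish. The ratios were chosen after the levels had been seen and carry no test.

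In bulk tissue, fewer cells of a type and less RNA per cell cannot be told apart. In the authors' pooled single-cell values, which name no sample, PER1 was detected in 46.8% of cells, PER3 in 37.5%, CRY2A in 28.9% and CRY1 in 25.1%. The cell total, worked out from the deposited cell numbers and percents, was 39140. It differs from the number of captured cells that the paper states. Detection was lower for CRY3 (13.2%), CRY1(2OF2) (12.6%), PER2(1OF2) (11.3%), PER2 (6.44%), CRY-DASH (1.8%) and CRY5 (1.64%). These shares are not split by cell type or age here, so they do not place a change in a cell type.

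Markers of cell types moved between 6 and 18 weeks together with the members. Over all tested loci, 15.2% were called lower and 14% higher. Of 12 RPE markers, 10 fell and 0 rose (median log2FC -1.38). The paper observed RPE sticking more firmly to young retinas at dissection. It proposes that RPE-related genes may therefore only appear lower with age, and draws no definitive conclusion on them. How far such carry-over enters the values of the members was not tested. Of 6 cone markers all fell (median -0.88), their summed level lying between 6080 and 10100 CPM in young and between 3850 and 5270 CPM in old fish, without overlap. Of 5 Müller glia markers 2 rose (median 0.38; summed 579 to 706 CPM, then 934 to 1200 CPM), and of 10 immune markers 6 rose (median 0.89; summed 55.4 to 179 CPM, then 107 to 158 CPM). By library size alone 9 RPE and 4 cone markers were lower and 3 Müller glia and 10 immune markers higher, with 1 RPE marker higher. That scaling called 46.1% of all tested loci higher and 4.56% lower. In it 6 of 8 rod, 5 of 8 amacrine, 3 of 8 ganglion cell and 3 of 6 oligodendrocyte markers were also higher, with 0 lower. Of 6 horizontal markers 3 were higher and 1 lower, of 7 bipolar markers 2 and 2, and of 8 proliferating markers 2 and 3. With TMM, of 8 markers of proliferating cells 5 fell and 0 rose (median -0.61; summed 482 to 590 CPM in young and 446 to 630 CPM in old fish), and of 6 oligodendrocyte markers 2 rose and 1 fell. Of the markers of other cell types, 2 of 8 rod and 2 of 8 amacrine loci rose and 0 fell, 1 rose and 2 fell among 6 horizontal and among 7 bipolar loci, 1 rose and 1 fell among 8 ganglion cell loci, and 1 of 2 lens loci rose.

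With the RPE markers' mean level as a covariate, PER1 (log2FC -0.73, FDR 0.000259, edgeR) and PER3 (-0.47, FDR 0.00291) were still called lower at 18 against 6 weeks. The calls of CRY2A (0.24, FDR 0.386), CRY1(2OF2) (-0.31, FDR 0.212) and PER2 (-0.35, FDR 0.449) were lost. A cone covariate, added after seeing the data, likewise left PER1 (-0.60, FDR 0.00171) and PER3 (-0.41, FDR 0.00775), with CRY2A at 0.32 (FDR 0.239), PER2 at -0.06 (FDR 0.923) and CRY1(2OF2) at -0.33 (FDR 0.172). Each score itself moved with age, so that age and score cannot be told apart in these fits. The share of all tested loci called with each covariate is not given here. The lost calls are therefore not read as particular to these members. The part of the other cell types in the results was not tested.

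The activators that PER and CRY proteins act on mostly rose. Of 5 tested activator loci, 4 rose between 6 and 18 weeks and 1 fell (median log2FC 0.78, against 0.02 over all loci). The list was chosen with earlier results of these data known, and the paper had reported arntl as increased with age in several cell types. Over all tested loci, 14% were called higher and 15.2% lower. By library size alone 4 activators were higher and 0 lower, where 46.1% of all loci were called higher. CLOCK averaged 7.56 ± 1.69 CPM in young and 17.5 ± 3.69 CPM in old fish (log2FC 1.22, SE 0.152, FDR 1.49e-07, edgeR). ARNTL rose from 5.7 ± 2.42 CPM to 12.6 ± 3.52 CPM (1.15, SE 0.207, FDR 6.17e-05), and NPAS2, which can stand in for CLOCK, from 16.5 ± 5.67 CPM to 28.3 ± 5.07 CPM (0.78, SE 0.183, FDR 0.0013). The locus that fell was ARNTL2 (-1.01, SE 0.312, FDR 0.0135), with at most 18 counts in a fish and an FDR of 0.0527 with library size alone. A second locus of that name, ARNTL2(1OF2), rose from 9.87 ± 3.2 CPM to 14.7 ± 5.24 CPM (0.57, SE 0.192, FDR 0.0235). Its call was lost with the RPE covariate (0.73, FDR 0.109). With the RPE covariate CLOCK (0.79, FDR 0.0167) and ARNTL (1.08, FDR 0.0254) kept their calls and NPAS2 (0.31, FDR 0.507) did not.

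Clock output genes were split. Of 17 tested loci, 6 fell, 4 rose and 7 were not called (median -0.17), where 15.2% of all tested loci were lower and 14% higher. DBPA, a PAR-bZIP factor driven through E-boxes, averaged 212 ± 24.1 CPM in young and 128 ± 11.6 CPM in old fish (log2FC -0.73, SE 0.0752, FDR 2.58e-09, edgeR). BHLHE41, a repressor that competes at E-boxes, fell from 149 ± 33.4 CPM to 69.5 ± 10.2 CPM (-1.10, SE 0.114, FDR 2.75e-09). NFIL3-6, of the NFIL3 family that opposes PAR-bZIP factors at D-boxes, rose from 10 ± 2.52 CPM to 22.2 ± 7.73 CPM (1.15, SE 0.166, FDR 1.91e-06). By library size alone the list had 6 higher and 4 lower, where 46.1% of all loci were called higher and 4.56% lower. All 3 kept their direction and call there, at -0.43 (FDR 5.63e-05) for DBPA, -0.81 (FDR 1.89e-06) for BHLHE41 and 1.46 (FDR 1.45e-08) for NFIL3-6. The ciart locus outside the name rule, C1ORF51(1OF2), whose product CIART represses CLOCK and ARNTL in mammals, fell as well, from 22.2 ± 4.55 CPM to 13 ± 3.8 CPM (-0.76, SE 0.147, FDR 0.000166).

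**Figure D4:**
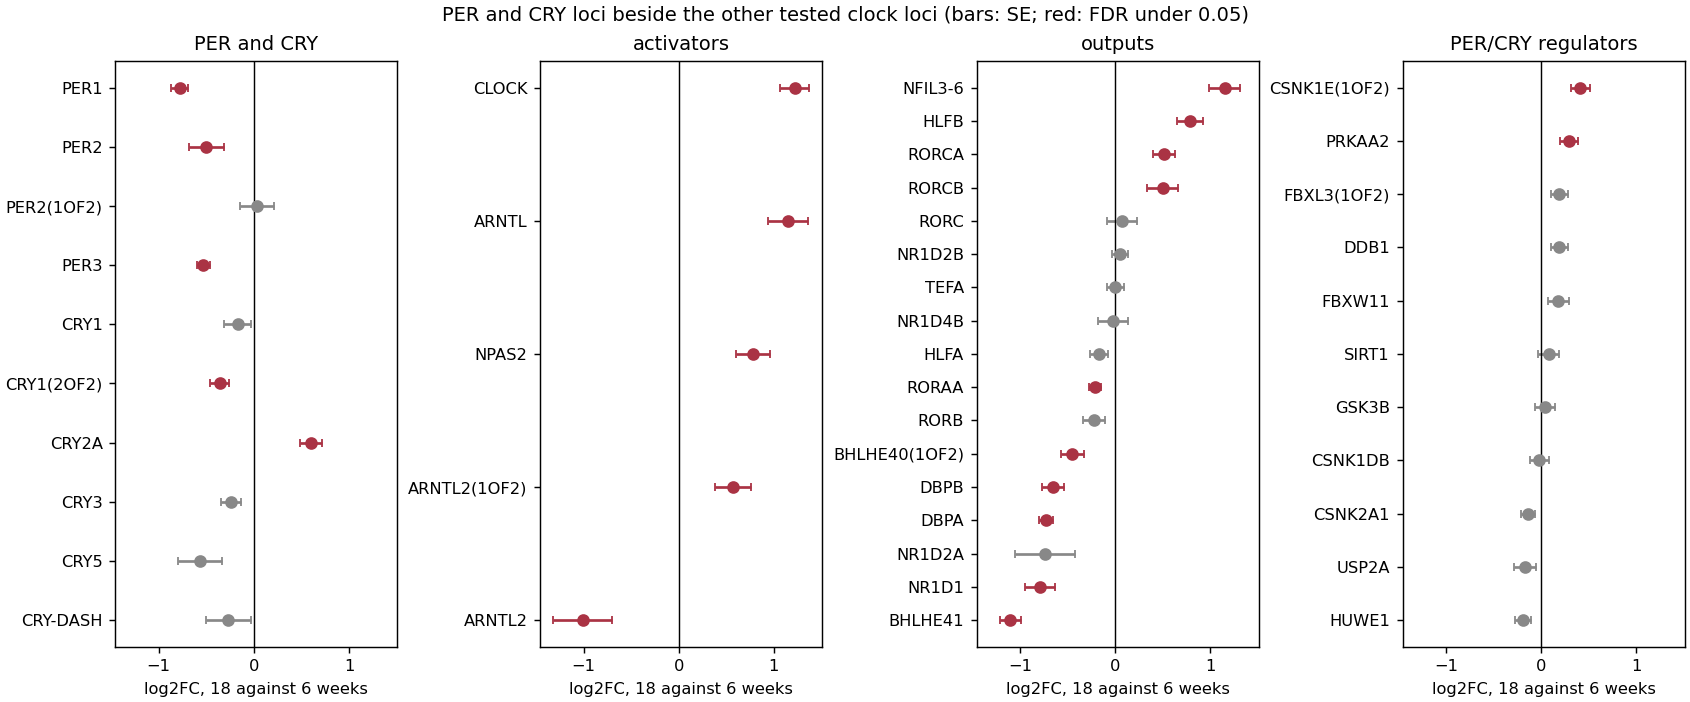
Log2FC at 18 against 6 weeks (horizontal axis, bars are SE) of the PER and CRY loci and of tested clock activator, output and PER/CRY regulator loci (red, FDR under 0.05, edgeR; grey, not). PER1 (-0.78) and PER3 (-0.53) lie left of 0 while CLOCK (1.22), ARNTL (1.15) and NPAS2 (0.78) lie right of it, and most regulators are near 0.

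Genes that act on PER and CRY proteins were mostly not called. Of 11 tested regulators, 2 rose and 0 fell (median 0.08), against 14% of all tested loci higher and 15.2% lower. CSNK1E(1OF2), a casein kinase that phosphorylates PER proteins, averaged 106 ± 8.55 CPM in young and 140 ± 32.3 CPM in old fish (log2FC 0.41, SE 0.0983, FDR 0.00165, edgeR). Its spread was wider in old fish, and whether the call rests on fish 1 was not examined. PRKAA2, a subunit of AMPK, which marks CRY1 for degradation in mice, rose from 32.2 ± 4.68 CPM to 39.2 ± 5.07 CPM (0.29, SE 0.0946, FDR 0.0203). With the RPE covariate both calls were lost, at 0.12 (FDR 0.629) for CSNK1E(1OF2) and 0.20 (FDR 0.403) for PRKAA2. With library size alone 8 of the 11 were called higher, where 46.1% of all loci were.

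Further groups bear on inputs that are known to induce PER and CRY genes. Of 6 tested light-responsive repair loci, 1 fell, the damage sensor XPC (log2FC -0.54, SE 0.111, FDR 0.000347, edgeR), and 0 rose. Of 7 glucocorticoid-responsive loci, which share that input with PER1 in mammals, 3 fell and 0 rose. These were SGK1 (-0.46, FDR 0.000124), the FKBP5 locus XLOC_015883 (-0.81, FDR 0.000189) and KLF9 (-0.51, FDR 0.0081). A second FKBP5 locus, XLOC_015884, was not called (-0.27, FDR 0.281). In the paper's single-cell data, fkbp5 and klf9 were instead higher at 18 than at 6 weeks within Müller glia. The paper also reported fkbp5 as higher within immune cells and oligodendrocytes. Those are measures within cell types and not in whole retina, and the difference was not examined. Of 8 immediate early loci, FOSB fell (-1.69, FDR 0.00056) and JUN(2OF2) rose (0.58, FDR 0.00266). Over all tested loci, 14% were called higher and 15.2% lower. With the RPE covariate the calls of KLF9 (-0.63, FDR 0.0587) and JUN(2OF2) (0.33, FDR 0.366) were lost. Those of XPC (FDR 0.0393), SGK1 (FDR 0.0111), FKBP5 XLOC_015883 (FDR 0.0183) and FOSB (FDR 0.000444) were kept. With library size alone the calls of XPC (FDR 0.091), SGK1 (FDR 0.18) and KLF9 (FDR 0.245) were lost. In that scaling, which called 46.1% of all loci higher and 4.56% lower, 2 light-responsive loci were higher and 0 lower, and 3 were higher and 1 lower in each of the other lists.

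Fish of the same age also differ from each other, and members were compared across fish after centring log2 CPM within each age. Of 55 pairs among the 10 members and the mean of the activators, 1 passed a permutation test on Pearson's r adjusted over the 55. CRY1 and PER2(1OF2), a light-induced cryptochrome and a PER2 copy, varied together over 30 fish (r = 0.77, permutation p = 0.00024, adjusted 0.0132; Spearman's rho = 0.60, permutation p = 0.00104, adjusted 0.0286). The value was 0.59, 0.77 and 0.86 within 6, 12 and 18 weeks, and 0.65 without the 2 fish farthest from the median. Without 18-week fish 1 it was 0.56 and its adjusted permutation p 0.0889, so the pass over 55 pairs rests on that fish.

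Other pairs did not pass. PER1 and PER3 had r = 0.51 (rho = 0.48, adjusted permutation p 0.129 and 0.16), and r = 0.61 (adjusted permutation p 0.0889) without fish 1. CRY1 and CRY2A had r = 0.63 (rho = 0.25, adjusted permutation p 0.186 and 0.54), but 0.11 without fish 1, so that this value rests on a single fish. CRY5 and CRY-DASH, the photolyase relatives, had r = 0.53 and rho = 0.65, of which the rank measure passed (adjusted permutation p 0.0763 and 0.0154). Against the mean of the activators, PER1 had r = -0.40 and rho = -0.45 (adjusted permutation p 0.186 and 0.16). PER3 had r = -0.37 and rho = -0.36 (adjusted permutation p 0.186 and 0.279), and CRY2A r = -0.01 and rho = 0.17 (adjusted permutation p 0.982 and 0.617). Without fish 1, r was -0.35 for PER1, -0.43 for PER3 and 0.26 for CRY2A (adjusted permutation p 0.239, 0.113 and 0.383). For CRY2A the sign differed between ages, at 0.36, 0.53 and -0.42 within 6, 12 and 18 weeks.

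**Figure D5:**
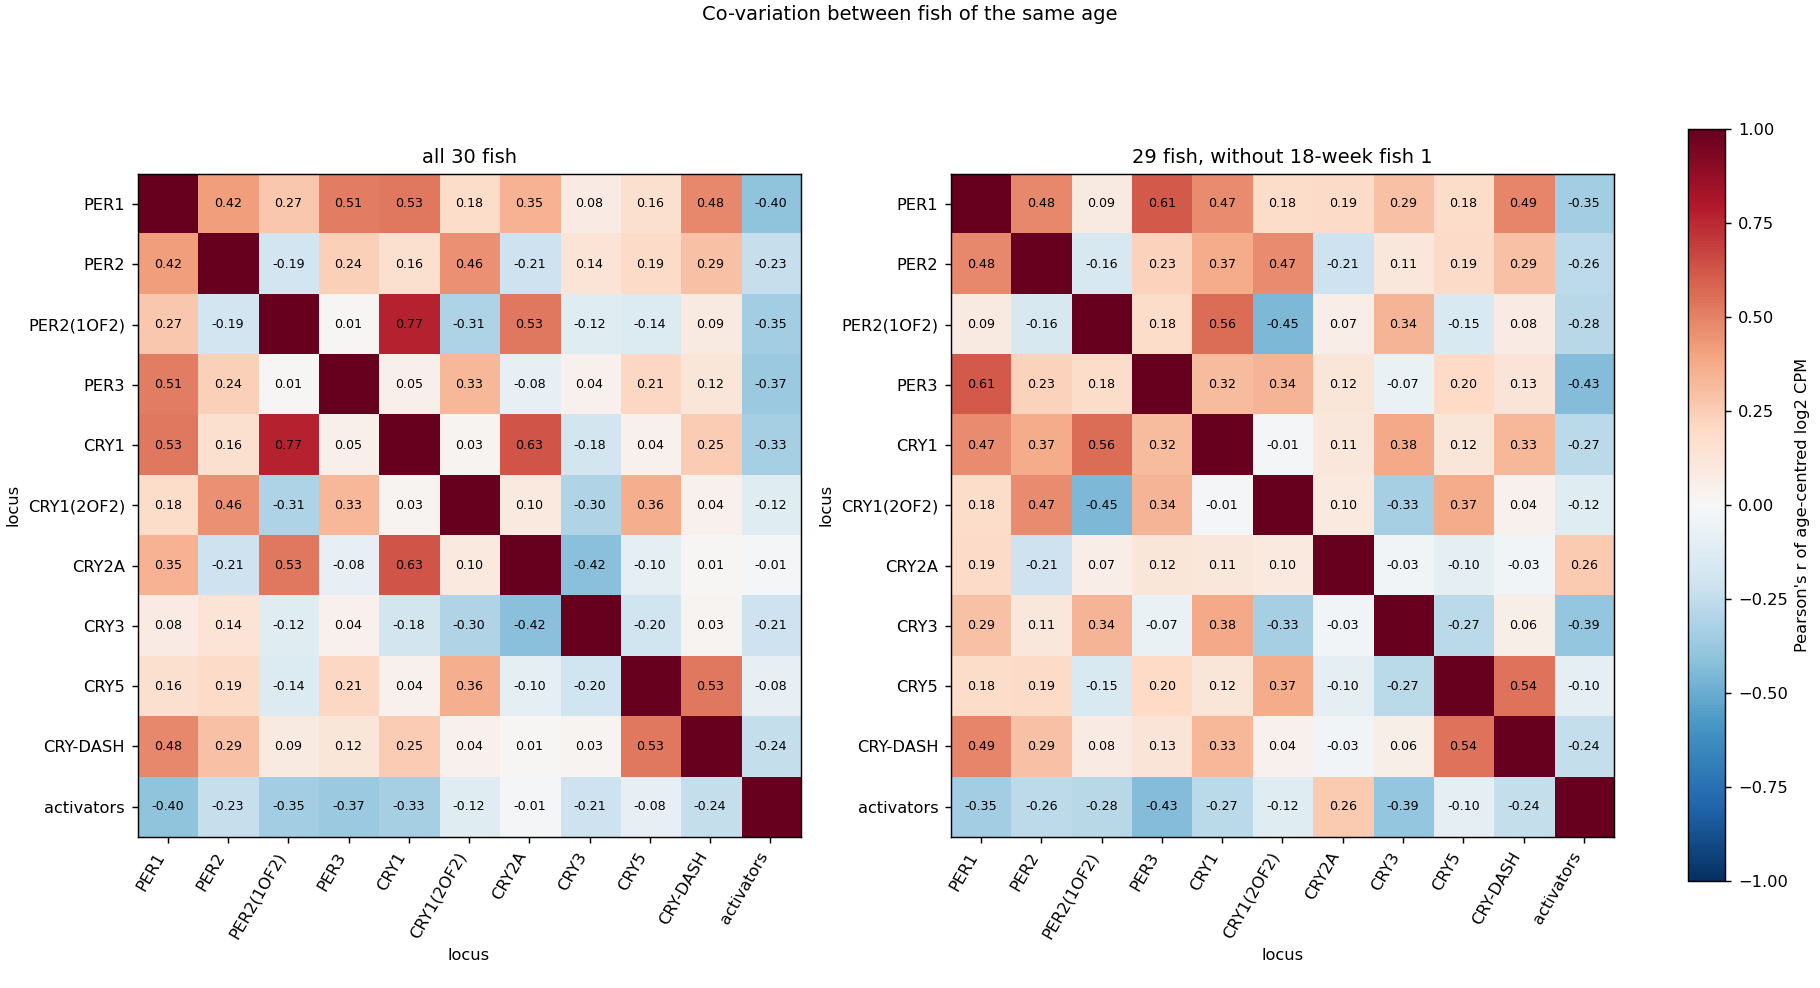
Pearson's r of age-centred log2 CPM between PER and CRY loci and the mean of 5 clock activator loci (rows and columns, colour from -1 blue to 1 red), over all 30 fish on the left and over 29 fish without 18-week fish 1 on the right. CRY1 with CRY2A goes from 0.63 to 0.11 and CRY1 with PER2(1OF2) from 0.77 to 0.56, while PER1 with PER3 goes from 0.51 to 0.61.

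The loci most like each called member were taken from 12242 named tested loci by the same age-centred r over 30 fish, as a description. PER1 was nearest to CTIF (0.71), KIAA1467 (0.69), PKN2 (0.68), HLFA (0.67) and DBPB (0.67), the last a pair of PAR-bZIP clock outputs, and most opposed to USP48 (-0.73), DOK6 (-0.70) and NEBL (-0.68). PER2 was nearest to the clock repressor BHLHE40(1OF2) (0.73), then KPNA6 (0.68), HER9 (0.67), ALDH7A1 (0.66) and HMGN3 (0.65), and most opposed to ERC1(2OF3) (-0.69), RORCA (-0.66) and BX255895.1 (-0.65). PER3 was nearest to CAMK1DA (0.66), KCNB2 (0.65), ADRBK2 (0.64), CAPRIN1(2OF2) (0.64) and SCAF11 (0.61), and most opposed to RIF1 (-0.60), PANX2 (-0.59) and MFNG (-0.56). Of these, HLFA, DBPB and BHLHE40(1OF2) are on the clock output list, as is RORCA among the opposed loci. No listed clock gene was among the loci named for PER3, nor among those of CRY1(2OF2) and CRY2A below. How high the top values of 12242 loci run by chance was not computed, so no conclusion is drawn from these names.

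CRY1(2OF2) was nearest to RECK (0.70), UQCC (0.68), LEO1 (0.58), PRDM2B (0.57) and TTC5 (0.56), and most opposed to XRCC3 (-0.60), ST6GALNAC5A (-0.59) and CAPN3 (-0.56). CRY2A was nearest to CLGN (0.85), ASPH (0.85), SLC7A10A (0.84), FP102892.2 (0.84) and SLC6A8 (0.84), and most opposed to ISCU(2OF2) (-0.88), NDUFB6 (-0.88) and OLA.5237 (-0.88). The CRY2A values were lower without 18-week fish 1, at 0.61 for CLGN, 0.61 for ASPH and 0.69 for SLC6A8, and weaker for NDUFB6 (-0.66). Those of PER1 moved little (0.67 for CTIF and -0.71 for USP48). All these loci were picked with 18-week fish 1 included, and the search was not repeated without it.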

How the data were processed

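Retinal RNA of 30 fish was sequenced by the authors with QuantSeq 3′ libraries (a fish per sample). Per the labels and the study's methods, the authors trimmed reads (Trim Galore 0.6.7, cutadapt 3.4), aligned them with STAR 2.7.0 to a custom transcriptome and made raw counts per locus with HTSeq 0.11.2. These deposited counts, without the counting categories (18 to 27.7% of reads with no feature and 0.838 to 1.85% ambiguous), were used. Strand handling in counting is not given in the sources used here. The deposited annotation also gives the number of single cells with each locus as counts and the percent of cells with a detection, pooled by the authors over all cells.

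Fish were grouped by the age in their labels and all 30 entered an edgeR 4.0.16 quasi-likelihood fit (R 4.3.3, filterByExpr, TMM), with 1 coefficient per age and Benjamini-Hochberg adjustment over 13975 loci (FDR threshold 0.05). SE is the absolute log2FC over the root of F. Log2 CPM used a prior count of 2, and correlations 100000 permutations of fish within ages. Spearman's rho was taken on ranks of the age-centred values. Its permutation p was taken on those ranks centred again within each age, so it belongs to a slightly different measure than the printed rho. Other settings tried were upper-quartile and RLE factors, library size with no factor, scaling without loci above 1% of counts, no filter, DESeq2 1.42.0, fits of the compared ages, a replicate block, RPE and cone covariates, and each fish left out. The fit was tested on simulated data.

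Members and lists were chosen with earlier results of these data known. Named partner genes are the up to 3 tested loci with the smallest FDR at 18 against 6 weeks in each list, if under 0.05. The ARNTL2 loci and the second FKBP5 locus were named in addition. Names were matched to RefSeq for 7 members, 5 with a symbol, on another assembly, so no coordinates are given. Promoter and protein sequences were not analysed here.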

Additional observations from a re-analysis of the deposited data

Results flagged for a closer look

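In 4 of 30 groups (10 loci at 3 ages, 10 fish each) a fish lay far from the others of its age by Dixon's criterion, where chance gives about 1 in 20 groups. At 18 weeks fish 1 was highest for CRY1 (127.0 CPM, next 57.3 CPM), for PER2(1OF2) (31.1 CPM, next 14.4 CPM) and for CRY2A (201.0 CPM, next 118.0 CPM). For CRY1(2OF2) at 18 weeks it was fish 6 (30.6 CPM, next 24.3 CPM). Fish 1 also stood apart over all loci, and the 2 most abundant loci took 18.3% of its counts, against a mean of 30.8% at 18 weeks.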

How the results depend on the processing

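PER1 and PER3 stayed lower and called at 18 weeks against both younger ages in every alternative run at the FDR threshold. With library size alone, members called at 18 against 6 weeks numbered 3, PER2 (-0.20), CRY1(2OF2) (-0.06) and CRY3 at 18 against 12 weeks (-0.13) lost their calls, and signs turned for CRY1 (0.04 at 12 against 6, 0.13 at 18 against 6, 0.09 at 18 against 12 weeks), PER3 (0.12) and CRY1(2OF2) (0.04) at 12 against 6 weeks, and CRY-DASH (0.04) and CRY3 (0.06) at 18 against 6 weeks. The correlated pairs then numbered 6 instead of 1. With TMM scaling and without 18-week fish 1 they numbered 0. With loci above 1% of counts left out of TMM scaling, all 30 values of the members kept their direction and call status. RLE, upper-quartile and DESeq2 gave PER2(1OF2) 0, -0.01 and 0 at 12 against 6 weeks. With the RPE covariate 2 members were called at 18 against 6 and 3 at 18 against 12 weeks, and with the cone covariate 2 and 2, with CRY2A at 18 against 12 weeks at 0.19 (FDR 0.392) and 0.13 (FDR 0.698), CRY3 at FDR 0.117 and 0.637, and PER2 called under the first (-0.83, FDR 0.00752) but not the second (-0.54, FDR 0.205). Signs turned under the RPE and cone covariates for PER3 at 12 against 6 weeks (0.02 and 0.01), CRY-DASH at 18 against 6 (0.13 and 0.22), CRY5 at 18 against 12 (0.05 and 0.11) and PER2(1OF2) (-0.24 and -0.03 at 12 against 6, -0.45 and -0.19 at 18 against 6, -0.21 and -0.16 at 18 against 12 weeks). The cause of these shifts was not tested, and the share of all tested loci called with each covariate is not given here. Fits of the compared 20 fish called 3 members at 18 against 12 weeks, losing CRY3 (FDR 0.0766) and CRY2A (FDR 0.0687), and lost PER2 at 18 against 6 weeks (FDR 0.0546). No filter lost PER2 at 18 against 6 (FDR 0.0516) and CRY3 at 18 against 12 weeks (FDR 0.0798), and upper-quartile factors lost the latter too (FDR 0.0524). Adding an absolute log2FC of at least 1 gave 0 calls in each comparison. With each fish left out, calls numbered 4 to 6 at 18 against 6, 3 to 5 at 18 against 12 and 0 to 0 at 12 against 6 weeks. The 3 fits with 3 calls at 18 against 12 weeks were without 12-week fish 1, 6 or 7. Log2FC ranged over -0.06 to 0.08, -0.19 to 0.11 and -0.19 to 0.09 for PER2(1OF2) at 12 against 6, 18 against 6 and 18 against 12 weeks, and -0.03 to 0.01 for PER3 at 12 against 6 weeks. Of 30 same-numbered pairs of fish, 2 had r over 0.1 (median 0.00787), and 6 fish matched their own number best. No chance value was computed for these counts, so whether fish numbers pair the samples was not tested. A replicate block gave 0, 5 and 4 calls at 12 against 6, 18 against 6 and 18 against 12 weeks, with PER2(1OF2) at -0.01 and -0.02 in the last 2 and CRY2A at 0.33 (FDR 0.0562) at 18 against 12 weeks. Depth limits CRY5 and CRY-DASH most, with at most 27 and 22 counts in a fish.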
